A study of Homo sapiens with 6 samples.

Results

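NF-kB is a family of transcription factors that carries signals from cytokine and innate immune receptors to genes of inflammation, adhesion and cell survival. The 10 genes described here are its 5 subunit genes (NFKB1, NFKB2, REL, RELA and RELB), 2 feedback inhibitors (NFKBIA and TNFAIP3) and 3 genes that NF-kB is known to induce (TRAF1, BIRC3 and ICAM1). They were taken by name and matched to NCBI gene identifiers, and all 10 were found among the 40895 genes of the count files. Expression was measured by sequencing of polyA RNA in A375SM, a human melanoma cell line derived from A375 and known for its metastatic behaviour. There were 3 libraries of cells transduced with a short hairpin RNA against PRAME mRNA (shPRAME) and 3 of cells with a control hairpin (shCtrl); the genotype label of all 6 is wild type and all carry the same batch label. Hairpin sequences, the number of hairpins and whether the libraries of a group came from separate transductions are not stated in the labels. P-values thus reflect library-to-library spread alone, and that spread may be technical.

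In resting cells NF-kB dimers are held in the cytoplasm by inhibitors of the IkB family, of which NFKBIA encodes the best known. In the canonical route, receptor signals lead an IkB kinase to mark the inhibitor for destruction, and dimers of p50 (from NFKB1) with RELA or REL enter the nucleus. In the non-canonical route the precursor p100 (from NFKB2) is cut to p52, which pairs with RELB. Several pathway genes, NFKB2, RELB, NFKBIA, TNFAIP3, TRAF1, BIRC3 and ICAM1 among them, are textbook targets of NF-kB itself. Melanomas often show constant NF-kB activity.

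PRAME mRNA, the target of the hairpin, stood at 34.2% of its control level. Its level was 57.7, 57.8 and 53.8 CPM (counts scaled to library size, with TMM factors) in the shPRAME libraries and 166.4, 163.9 and 164.8 CPM in the shCtrl libraries. Library totals ran from 30842788 to 34107332 counts. The test was edgeR's quasi-likelihood test over 15954 genes, with Benjamini-Hochberg adjustment over all of them and a call at an adjusted p under 0.05. It called 74.4% of these genes, 37.7% as higher and 36.8% as lower in shPRAME, so a call on its own does not set a gene apart here. The melanoma markers SOX10 (275.4 CPM in shPRAME and 265.7 CPM in shCtrl) and MITF (37.7 and 44.6 CPM) were present, as was S100B (28.2 and 54.02 CPM), named after its values were seen. Of these 3, SOX10 did not pass (log2 fold change 0.05, edgeR adjusted p = 0.076), while MITF (-0.24) and S100B (-0.94, edgeR adjusted p = 9.43e-13) were lower in shPRAME. By contrast, the pigment genes PMEL, MLANA, TYR, DCT and TYRP1 were below 1 CPM in every library.

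Of the 10 genes, 9 were called lower in shPRAME, none was called higher and 1, NFKB1, did not pass. The background share of genes called lower was 36.8%. The median log2 fold change of the 10 was -0.92, against 0.01 over all tested genes, and 4 of them fell at least 2-fold: TRAF1, ICAM1, BIRC3 and RELB. Of all 15954 tested genes, 2961 were called with a change of at least 2-fold in either direction. Among the 10, the smallest changes were in the canonical subunits NFKB1, RELA and REL and in NFKBIA. In these bulk libraries, fewer cells that express a gene and less RNA per cell cannot be told apart. The genes were chosen with earlier results of these data known, so the counts describe them and are no independent evidence of a direction.

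**Figure D1:**
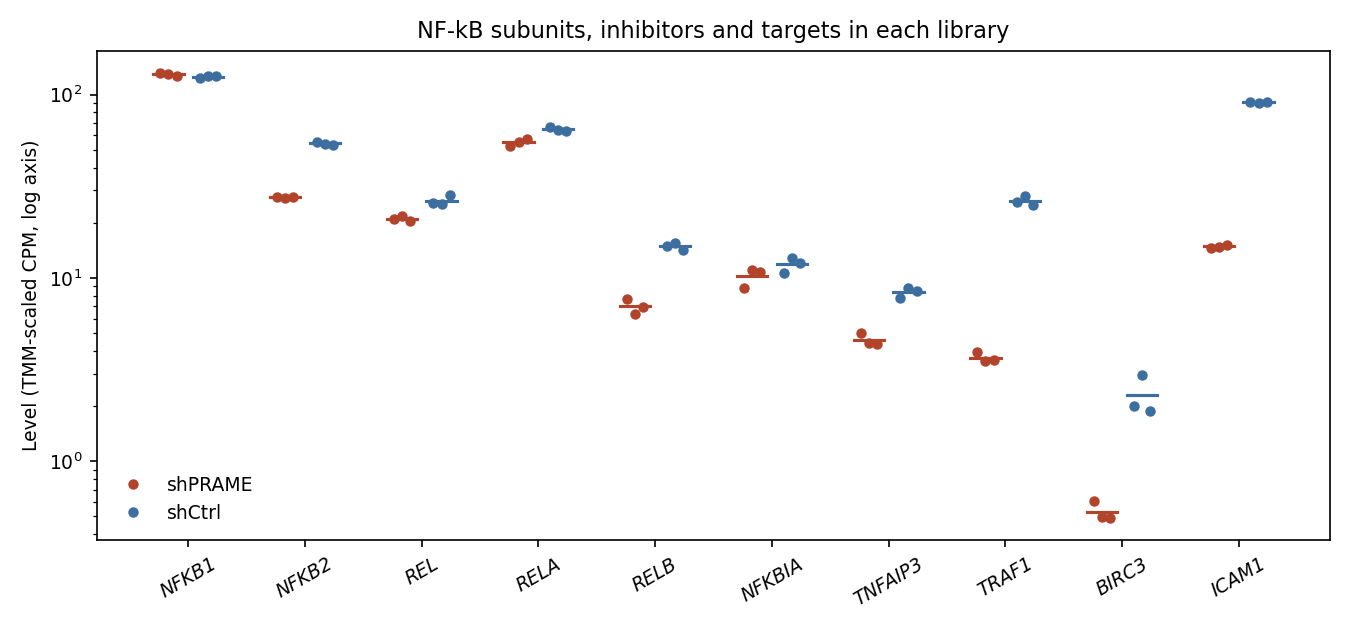
Level of each gene in each library (TMM-scaled CPM, log axis); points are libraries, horizontal bars are means of 3. The shPRAME points lie below the shCtrl points for 8 genes, they overlap for NFKBIA, and for NFKB1 they lie slightly above.

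Kappa-B sites are the short DNA elements that NF-kB binds. RefSeq promoter windows (GRCh38.p14, 250 bases before to 50 after an annotated start) were matched for 9 of the 10 genes; RELB is named only. Each window was searched on both strands for the textbook kappa-B consensus of 10 bases and for the shorter GGNNNTTCC, which can overlap it. The windows below are those of the 3 genes with the largest changes and of 2 genes that changed little, in the direction of transcription, with every match in capitals. ICAM1 lies at chr19:10270870-10271169 (plus strand), TRAF1 at chr9:120929122-120929421 (minus strand), BIRC3 at chr11:102317234-102317533 (plus strand), NFKBIA at chr14:35404700-35404999 (minus strand) and NFKB1 at chr4:102501109-102501408 (plus strand).
ICAM1: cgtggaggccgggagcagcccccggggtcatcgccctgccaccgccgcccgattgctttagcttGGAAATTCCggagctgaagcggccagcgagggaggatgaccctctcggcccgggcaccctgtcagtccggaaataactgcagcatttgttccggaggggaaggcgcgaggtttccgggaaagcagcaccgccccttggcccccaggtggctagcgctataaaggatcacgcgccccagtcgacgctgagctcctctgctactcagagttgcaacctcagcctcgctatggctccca
TRAF1: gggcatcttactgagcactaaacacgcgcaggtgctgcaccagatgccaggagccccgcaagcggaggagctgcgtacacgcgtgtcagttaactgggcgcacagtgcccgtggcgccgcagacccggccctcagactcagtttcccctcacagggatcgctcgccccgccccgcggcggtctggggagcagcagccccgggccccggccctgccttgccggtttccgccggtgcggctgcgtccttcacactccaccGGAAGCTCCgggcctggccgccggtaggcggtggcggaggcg
BIRC3: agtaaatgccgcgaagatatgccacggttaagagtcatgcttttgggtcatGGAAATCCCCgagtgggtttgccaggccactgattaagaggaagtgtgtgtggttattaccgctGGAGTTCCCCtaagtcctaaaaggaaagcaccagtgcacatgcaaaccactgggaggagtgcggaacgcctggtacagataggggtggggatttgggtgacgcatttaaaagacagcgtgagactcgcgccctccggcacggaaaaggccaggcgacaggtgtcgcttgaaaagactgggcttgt
NFKBIA: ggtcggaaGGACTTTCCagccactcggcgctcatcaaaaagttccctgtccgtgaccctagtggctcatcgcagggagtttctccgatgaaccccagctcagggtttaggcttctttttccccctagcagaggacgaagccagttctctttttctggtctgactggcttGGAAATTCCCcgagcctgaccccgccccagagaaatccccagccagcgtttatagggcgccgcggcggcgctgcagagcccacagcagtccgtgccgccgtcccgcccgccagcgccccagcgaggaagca
NFKB1: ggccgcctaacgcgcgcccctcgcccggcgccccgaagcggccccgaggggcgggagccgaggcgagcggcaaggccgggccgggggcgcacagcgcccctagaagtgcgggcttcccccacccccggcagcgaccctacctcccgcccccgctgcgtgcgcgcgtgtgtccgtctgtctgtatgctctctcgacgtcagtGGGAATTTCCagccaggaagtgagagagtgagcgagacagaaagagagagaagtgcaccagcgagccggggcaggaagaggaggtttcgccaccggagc

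The kappa-B consensus was found in 5 of the 9 windows (NFKB1, REL, NFKBIA, TNFAIP3 and BIRC3), against 5.72% of all 27305 promoter windows in the table. The shorter motif was found in 7 of 9, against 20.1% of all windows. ICAM1 had no consensus match but held GGAAATTCC from 186 to 178 bases before its start. BIRC3 held GGAAATCCCC, 199 to 190 bases before its start, and GGAGTTCCCC, 135 to 126 bases before. TRAF1 had no consensus match and a single short match, GGAAGCTCC, inside its transcribed part. NFKBIA and NFKB1, which had the smallest log2 fold changes in size, held GGAAATTCCC and GGGAATTTCC within 81 bases of their starts. NFKB2, which fell, had no match of either kind, and neither did RELA. A match is a description of the letters and does not show binding.

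**Figure D2:**
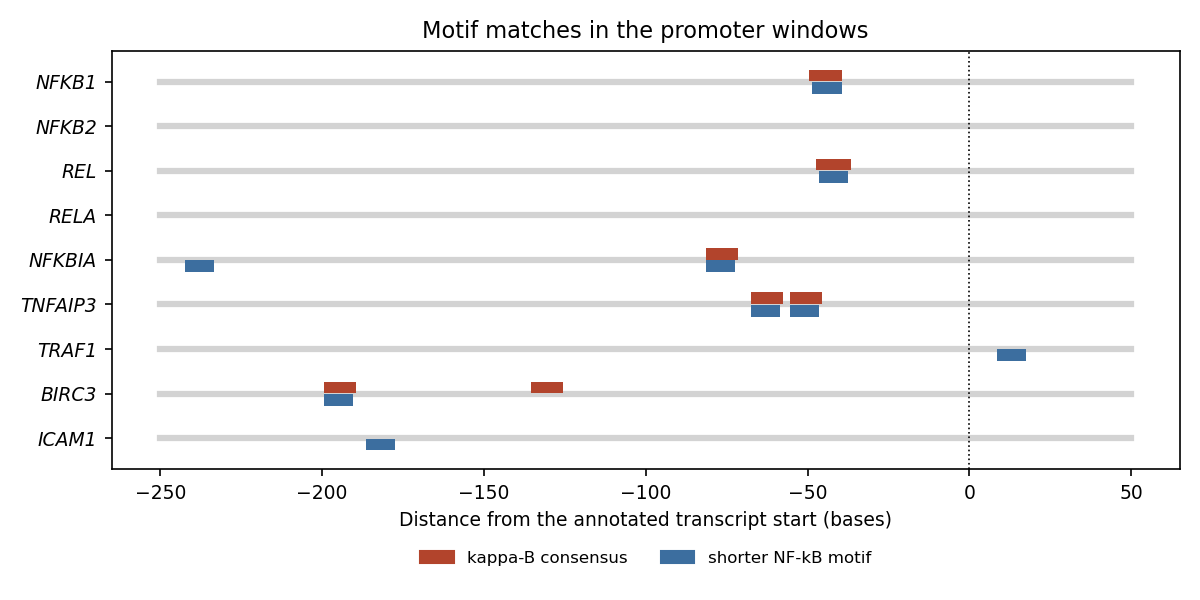
Positions of motif matches, in bases from the annotated start, in the 9 promoter windows; grey lines are the windows, red boxes the kappa-B consensus and blue boxes GGNNNTTCC. Among the 3 genes that fell most, BIRC3 holds 2 consensus matches and ICAM1 and TRAF1 hold none. TNFAIP3 also holds 2, REL holds 2 that overlap each other, and NFKB1 and NFKBIA hold 1 each.

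Among the subunits, the pair of the non-canonical route fell and the canonical pair differed little. NFKB2 (chr10:102394110-102402529), which encodes p100 and p52, had 27.6, 27.2 and 27.7 CPM in shPRAME, against 55.2, 54.0 and 53.4 CPM in shCtrl. The groups were far apart and each was tight, and the log2 fold change was -0.98 (SE 0.037, edgeR adjusted p = 1.83e-13). RELB (chr19:45001464-45038192), the partner of p52, had 7.71, 6.32 and 6.95 CPM in shPRAME and 14.9, 15.5 and 14.2 CPM in shCtrl. The groups did not overlap, and RELB fell 2.12-fold (log2 fold change -1.09, SE 0.0807, edgeR adjusted p = 1.67e-09).

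NFKB1 (chr4:102501359-102617302), the source of p50, had 131.3, 130.4 and 126.9 CPM in shPRAME and 123.8, 126.7 and 125.9 CPM in shCtrl. The shPRAME values were the higher ones by a margin of well under 1 CPM between the closest libraries, and the difference did not pass (log2 fold change 0.05, SE 0.0267, edgeR adjusted p = 0.135). It passed as higher without shPRAME replicate 3 (adjusted p = 0.0471, edgeR), with a log2 fold change of 0.07, and with scaling to library totals (0.10, edgeR adjusted p = 0.00279). The 100 tested genes around NFKB1, 50 on each side, had a median log2 fold change of 0.38. With that regional shift taken out of the fit NFKB1 was lower, at -0.34 (edgeR adjusted p = 5.21e-09). This p-value treats the shift as a fixed value and leaves out the error of the regional median. The direction of NFKB1 thus depends on whether it is read against all genes or against its chromosomal neighbours.

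RELA (chr11:65653601-65663857), the main transactivating subunit, had 52.7, 54.9 and 57.4 CPM in shPRAME and 66.9, 64.3 and 63.6 CPM in shCtrl. The groups did not overlap, and RELA stood at 84.7% of its control level (log2 fold change -0.24, SE 0.0369, edgeR adjusted p = 1.67e-05). REL (chr2:60881574-60931612), the c-Rel subunit best known from lymphocytes, had 20.9, 21.8 and 20.6 CPM in shPRAME and 25.5, 25.2 and 28.2 CPM in shCtrl. It also fell with no overlap, to 80.2% of its control level (log2 fold change -0.32, SE 0.0545, edgeR adjusted p = 5.16e-05). Changes larger than that of REL in either direction were found at 56.5% of all tested genes, and larger than that of RELA at 65.8%.

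The balance between subunit transcripts was taken within each library, so that scaling plays no part. Counts of NFKB2 per count of NFKB1 were 0.21, 0.209 and 0.219 in shPRAME and 0.446, 0.426 and 0.424 in shCtrl. Counts of RELB per count of RELA were 0.147, 0.115 and 0.121 in shPRAME and 0.222, 0.241 and 0.224 in shCtrl. Both ratios separated the groups completely. The 2-sided exact permutation p was 0.1 for each, the smallest that 3 against 3 libraries can give, and 0.1 after adjustment over the 3 ratios computed. These ratios were chosen after the values were seen.

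Levels of different genes are compared here only per length, as CPM per kilobase of the longest GENCODE 29 transcript. In shPRAME the order was NFKB1 (31.7 ± 0.569), RELA (17.3 ± 0.747), NFKB2 (8.05 ± 0.0801), NFKBIA (6.57 ± 0.762), ICAM1 (4.57 ± 0.0866), RELB (3.05 ± 0.304), REL (1.87 ± 0.0542), TNFAIP3 (0.968 ± 0.0755), TRAF1 (0.582 ± 0.0353) and BIRC3 (0.102 ± 0.0128; SD, n = 3). In shCtrl it was NFKB1 (30.7 ± 0.366), ICAM1 (27.9 ± 0.0702), RELA (20.4 ± 0.537), NFKB2 (15.9 ± 0.268), NFKBIA (7.61 ± 0.712), RELB (6.48 ± 0.271), TRAF1 (4.18 ± 0.233), REL (2.34 ± 0.145), TNFAIP3 (1.77 ± 0.118) and BIRC3 (0.440 ± 0.114). NFKB1 led in both groups. ICAM1 stood between NFKBIA and RELB in shPRAME and just below NFKB1 in shCtrl, and TRAF1 stood below TNFAIP3 in shPRAME and above it in shCtrl. In neither group did the libraries of 2 genes next to each other in the order overlap. That reflects library spread alone. Which transcripts the counts cover is not stated, and another choice of length could change the order.

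The 2 feedback inhibitors differed in how far they moved. TNFAIP3 (chr6:137866349-137883312) encodes A20, an enzyme that edits ubiquitin chains and ends NF-kB signalling. It had 4.99, 4.41 and 4.34 CPM in shPRAME and 7.75, 8.84 and 8.50 CPM in shCtrl, with no overlap. TNFAIP3 fell 1.82-fold (log2 fold change -0.87, SE 0.0984, edgeR adjusted p = 4.19e-07). NFKBIA (chr14:35401513-35404749), which encodes IkB-alpha, had 8.87, 11.0 and 10.8 CPM in shPRAME and 10.7, 12.9 and 12.0 CPM in shCtrl. Its groups overlapped, and it passed only narrowly (log2 fold change -0.21, SE 0.0911, edgeR adjusted p = 0.0468). The call was lost without shCtrl replicate 2 (log2 fold change -0.15, adjusted p = 0.198, edgeR), without shCtrl replicate 3 (-0.20, adjusted p = 0.0837, edgeR) and without shPRAME replicate 1 (-0.11, adjusted p = 0.267, edgeR), as well as with DESeq2, limma-voom and scaling to library totals.

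The 3 target genes fell the most. ICAM1 (chr19:10271120-10286615) encodes the adhesion receptor that leukocyte integrins bind. It had 14.6, 14.8 and 15.2 CPM in shPRAME, against 90.6, 90.6 and 91.0 CPM in shCtrl. The libraries of each group were within 1 CPM of each other, and ICAM1 fell 6.10-fold (log2 fold change -2.61, SE 0.037, edgeR adjusted p = 5e-19). By p-value it ranked 34 of 15954 genes.

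TRAF1 (chr9:120902393-120929171) encodes an adaptor of tumour necrosis factor receptors that binds TRAF2 and the cellular inhibitors of apoptosis. It had 3.94, 3.54 and 3.56 CPM in shPRAME and 26.1, 28.02 and 25.1 CPM in shCtrl, a 7.18-fold fall with no overlap (log2 fold change -2.84, SE 0.0756, edgeR adjusted p = 1.64e-15). Larger changes were found at 4.94% of tested genes. TRAF1 overlaps the start of PHF19 on the same strand, so the division of reads between them is uncertain. PHF19 had 121.6 ± 2.42 CPM in shPRAME and 126.0 ± 1.58 CPM in shCtrl (SD, n = 3 each; log2 fold change -0.05, edgeR adjusted p = 0.0993). Annotated genes also overlap NFKB1, RELA, TNFAIP3 and ICAM1, and with the strand setting not stated their reads cannot be told apart; the most counts at any of them were 132 over the 6 libraries, at RELA-DT.

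BIRC3 (chr11:102317484-102339403) encodes cIAP2, a ubiquitin ligase that acts on RIPK1 and on the kinase of the non-canonical route. It was the lowest of the 10 genes in both groups, with 19, 17 and 17 counts in shPRAME and 68, 97 and 58 counts in shCtrl, or 0.608, 0.493 and 0.492 CPM and 2.01, 2.97 and 1.88 CPM. shCtrl replicate 2 stood above the other controls, and every shPRAME library lay below all of them. BIRC3 fell 4.30-fold (log2 fold change -2.10, SE 0.227, edgeR adjusted p = 2.31e-07). Its paralogue BIRC2, which encodes cIAP1 and lies next to it at chr11:102347214-102378670, rose: it had 79.2 ± 0.189 CPM in shPRAME and 50.2 ± 1.34 CPM in shCtrl (SD, n = 3 each; log2 fold change 0.66, SE 0.0319, edgeR adjusted p = 5.03e-12). YAP1, the nearest tested gene on the other side of BIRC3, was higher as well (log2 fold change 0.41, edgeR adjusted p = 1.52e-08). Counts of BIRC3 per count of BIRC2 were 0.00768, 0.00624 and 0.0062 in shPRAME and 0.041, 0.0597 and 0.0364 in shCtrl, with an exact permutation p of 0.1, the smallest that this design allows.

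Neighbouring genes can shift together between the 2 sets of cells, so each of the 10 was set beside the median log2 fold change of the 50 nearest tested genes on each side. These regional medians lay between -0.22 (TNFAIP3) and 0.40 (BIRC3), and were -0.02 for ICAM1, 0.18 for TRAF1, -0.10 for NFKB2 and -0.16 for RELB. With the shift taken out of the fit, all 10 genes were called lower. The log2 fold changes were then -0.14 for RELA, -0.47 for NFKBIA and -3.02 for TRAF1. The shift entered the fit as a fixed value, so these calls leave out the error of the regional median. That matters most for small changes such as that of RELA. The nearest tested genes on either side of ICAM1, MRPL4 (log2 fold change -0.12, edgeR adjusted p = 0.0256) and ICAM5 (-0.15, edgeR adjusted p = 0.126), differed far less than ICAM1 did. Those on either side of NFKB2 fell as well. GBF1 had a log2 fold change of -0.33 (edgeR adjusted p = 4.43e-09) and FBXL15 of -0.53 (edgeR adjusted p = 0.00394), against -0.98 for NFKB2. Of the 20 nearest tested genes, 1 on each side of each of the 10, 7 were called higher, 6 lower and 7 did not pass. NFKB2 was the 1 gene with both called lower. Among these 20, NFKB1-AS1, RELA-DT and PHF19 overlap the gene they were set beside, and untested genes may lie closer.

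**Figure D3:**
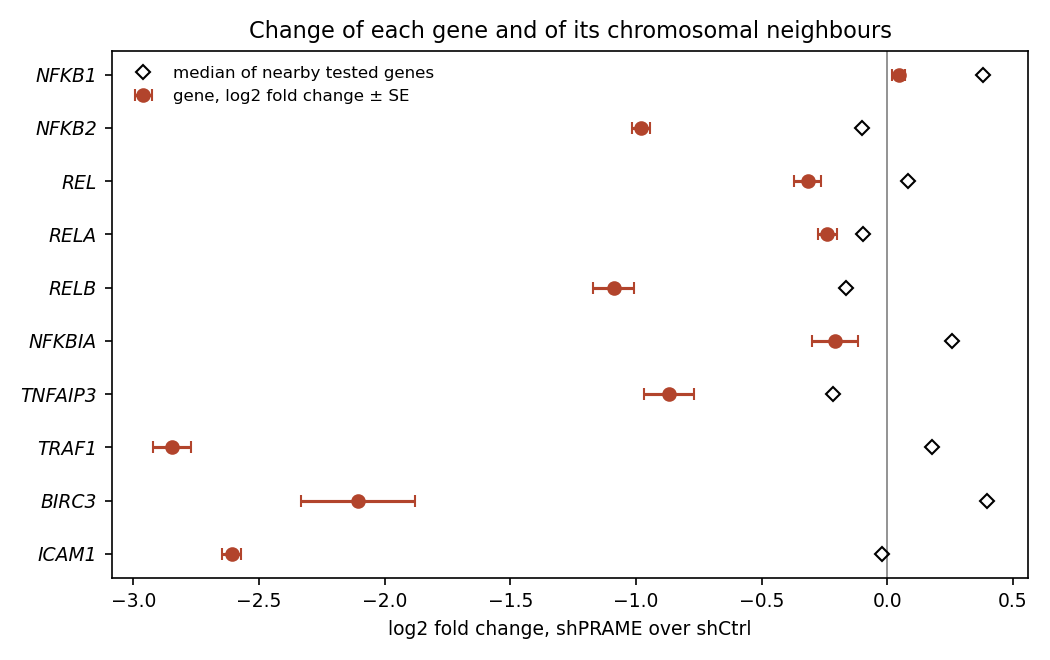
log2 fold change of shPRAME over shCtrl for each gene (circles, bars are ± SE, n = 3 libraries a group), with the median of the 50 nearest tested genes on each side (diamonds). TRAF1, ICAM1 and BIRC3 lie at -2.84, -2.61 and -2.10, far below their neighbours, while NFKB1 lies at 0.05 where its neighbours' median is 0.38.

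The rest of the pathway was described by 5 lists. Of 25 receptors and adaptors, 20 had enough counts to be tested, of which 4 rose, 10 fell and 6 did not pass (median log2 fold change -0.13). IL1RAP, the accessory chain of the interleukin-1 receptor, fell to 147.8 ± 0.836 CPM in shPRAME, against 226.3 ± 8.54 CPM in shCtrl. NGFR, a receptor of the tumour necrosis factor family and a marker of neural crest-like melanoma cells, fell to 5.13 ± 0.628 CPM, against 12.8 ± 0.893 CPM. TLR4, the lipopolysaccharide receptor, rose to 59.5 ± 3.03 CPM in shPRAME, against 45.4 ± 1.67 CPM in shCtrl, and BIRC2, given above, rose too. Log2 fold changes were 0.39 for TLR4 and 0.66 for BIRC2, in regions with medians of 0.21 and 0.38. For these named genes edgeR adjusted p was 1.89e-07 or smaller.

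Of 13 kinases and linear ubiquitin ligase subunits, all were tested, and 3 rose, 8 fell and 2 did not pass (median log2 fold change -0.32). TAB2 and TAB3 encode adaptors that tie the kinase TAK1 to ubiquitin chains. Both fell: TAB2 had 98.5 ± 1.44 CPM in shPRAME and 160.6 ± 3.77 CPM in shCtrl, and TAB3 had 35.9 ± 0.578 and 69.9 ± 1.93 CPM. TAB1, an activator of TAK1, rose to 24.3 ± 0.669 CPM in shPRAME, against 18.5 ± 0.317 CPM in shCtrl. SHARPIN, a subunit of the linear ubiquitin ligase, rose to 21.9 ± 1.42 CPM, against 15.6 ± 1.02 CPM. Log2 fold changes were -0.70 for TAB2, -0.96 for TAB3, 0.39 for TAB1 and 0.49 for SHARPIN. Their regional medians went the same way, at -0.30, -0.20, 0.22 and 0.32. The catalytic IkB kinase subunits, named after their values were seen, moved little. IKBKB had a log2 fold change of 0.19 (edgeR adjusted p = 0.000109) and CHUK of -0.08 (edgeR adjusted p = 0.0426). Other genes of this list, also named afterwards, fell more than CHUK. They were IKBKG (log2 fold change -0.59, edgeR adjusted p = 6.47e-08), MAP3K14 (-0.47), TBK1 (-0.38), IKBKE (-0.36) and MAP3K7 (-0.32). Regional medians for these were, in the same order, -0.32, 0.12, 0.12, -0.04 and -0.36, so MAP3K7 fell no more than its region.

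Of 15 other inhibitors and IkB proteins, 13 were tested, and 4 rose, 7 fell and 2 did not pass (median log2 fold change -0.48). OTULIN, which removes linear ubiquitin chains, had 34.4 ± 0.272 CPM in shPRAME and 53.7 ± 2.15 CPM in shCtrl. TNIP1, a partner of A20, had 32.8 ± 0.826 and 46.2 ± 1.86 CPM. Their log2 fold changes were -0.64 and -0.49, in regions with medians of -0.27 and -0.32. NFKBIZ, a nuclear IkB protein, rose to 12.8 ± 0.378 CPM in shPRAME, against 9.70 ± 0.549 CPM in shCtrl. TNIP2, another partner of A20, rose to 23.8 ± 0.588 CPM, against 18.8 ± 0.575 CPM, a log2 fold change of 0.34 in a region whose median was 0.56.

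NF-kB target genes outside the 10 moved both ways, some of them very far. Of 25 cytokine and chemokine genes only 10 had enough counts to be tested, and 2 rose, 6 fell and 2 did not pass (median log2 fold change -0.39). TNF and IL6 had no more than 2 counts in any library. CCL2, the monocyte chemokine, had no count in shPRAME and 168, 191 and 175 counts in shCtrl, at least 183-fold lower, taking 3 counts over the group as the floor. LIF, an interleukin-6 family cytokine, fell to 46.0 ± 1.35 CPM in shPRAME, against 91.0 ± 5.72 CPM in shCtrl. CXCL8, the chemokine interleukin-8, went the other way, with 640.5 ± 9.42 CPM in shPRAME and 127.1 ± 4.15 CPM in shCtrl (log2 fold change 2.33, edgeR adjusted p = 3.14e-20). Named after their values were seen, IL1A had 3, 11 and 5 counts in shPRAME and 139, 168 and 149 in shCtrl, and IL1B had 1, 1 and 2 counts in shPRAME and 101, 93 and 97 in shCtrl. CXCL1, also named afterwards, had 31, 35 and 18 counts in shPRAME and none in shCtrl, at least 27.2-fold higher over the same floor, but it has close paralogues.

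Of 30 survival, adhesion and enzyme genes, 25 were tested, and 4 rose, 17 fell and 4 did not pass (median log2 fold change -0.51, the same with SAA1 at its lower bound). XIAP, a caspase inhibitor, had 73.8 ± 2.10 CPM in shPRAME and 119.8 ± 5.21 CPM in shCtrl, in a region whose median log2 fold change was -0.44. C3, the central complement component, had 4, 1 and 5 counts in shPRAME and 122, 133 and 119 in shCtrl. MYC rose to 76.1 ± 1.03 CPM in shPRAME, against 18.2 ± 0.557 CPM in shCtrl (regional median 0.52), and CD44, the hyaluronan receptor, to 897.0 ± 6.83 CPM, against 805.8 ± 15.1 CPM. The endothelial adhesion genes VCAM1 and SELE had no count in any library. Over all 5 lists the share called was 70.0% to 84.6%, against 74.4% of all tested genes. A gene that had counts in 1 group alone could be tested only because it differed. The same held for IL1A, IL1B and C3, which passed the filter on low counts only through shCtrl. All such genes are among the calls counted above and enter the medians.

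**Figure D4:**
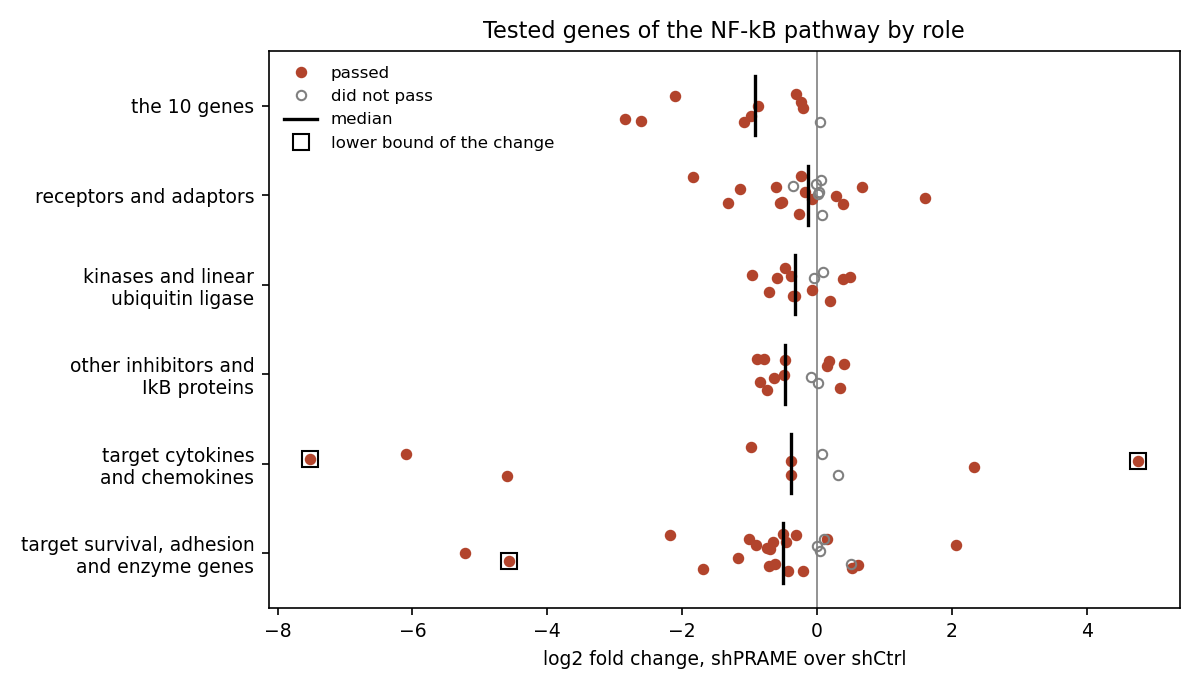
log2 fold change of shPRAME over shCtrl for every tested gene of the 10 and of the 5 pathway lists; filled circles passed at an edgeR adjusted p under 0.05, open circles did not, vertical bars are medians and squares mark genes without a count in 1 group, drawn at the lower bound of their change. Medians lie at -0.92 for the 10 genes and between -0.51 and -0.13 for the lists, with CXCL8 and MYC far to the right of theirs.

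The genes whose centred log2 pattern over the 6 libraries was nearest to each of the 10, among 11994 protein-coding genes, were HYI for ICAM1, APOL6 for TRAF1, NEXN for BIRC3, CYTH3 for NFKB2, TMEM178B for RELB, RSRP1 for TNFAIP3, BCKDHB for REL, DDX56 for RELA, SPA17 for NFKBIA and SART3 for NFKB1. The root mean square difference ran from 0.00748 (NFKB1) to 0.171 (BIRC3) on the log2 scale.

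NF-kB target genes are also expressed by leukocytes, endothelial cells and fibroblasts, so their markers were read beside the counts above. Of 6 leukocyte markers 3 were tested and all 3 rose; the summed level was 72.4 to 74.4 CPM in shPRAME and 43.0 to 45.5 CPM in shCtrl, nearly all of it CD68 (70.7 and 43.9 CPM), with LYZ next (1.31 and 0.0707 CPM); PTPRC, the third, had 0.925 CPM in shPRAME and no count in shCtrl. CD3E had no count in any library. Of 5 endothelial markers 2 were tested and 1, TEK, rose (2.79 CPM in shPRAME and 0.0309 CPM in shCtrl), while KDR did not pass (0.335 and 0.293 CPM); the sum was 3.01 to 3.85 CPM in shPRAME and 0.292 to 0.947 CPM in shCtrl, and CDH5 had no count. Of 8 fibroblast markers 7 were tested, of which 5 rose and 2 fell, with sums of 88.1 to 95.3 CPM in shPRAME and 112.5 to 116.3 CPM in shCtrl. PDGFRB (17.4 and 64.3 CPM) and FAP (27.0 and 46.1 CPM) had the highest levels over both groups and were the 2 that fell. The 5 that rose, named after their values were seen, were COL1A2 (21.6 CPM in shPRAME and no count in shCtrl), PDGFRA (12.3 and 3.72 CPM), LUM (9.89 and 0.0102 CPM), COL3A1 (2.58 and 0.0305 CPM) and COL1A1 (0.493 and 0.112 CPM), and in shPRAME COL1A2 stood above PDGFRB. Of 5 keratinocyte markers 1 was tested and fell, with sums of 23.2 to 24.4 CPM in shPRAME and 27.7 to 29.6 CPM in shCtrl, led by KRT10 (23.4 and 28.2 CPM) and KRT14 (0.209 and 0.326 CPM); KRT5 and KRT1 had no count. Of the markers that rose, PTPRC, LYZ, TEK, COL1A2, LUM, COL3A1 and COL1A1 were at or near the floor in shCtrl. They passed the filter on low counts only through shPRAME, so the direction of their change was set by that filter. The part of other cell types in the changes of the 10 genes was not tested.

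The groups did not overlap at 9 of the 10 genes, 8 with shPRAME lower and NFKB1 with shPRAME higher. Over all tested genes the share without overlap was 76.5%.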

How the data were processed

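PolyA RNA of 3 shPRAME and 3 shCtrl libraries of A375SM cells was sequenced. Per the file headers, the authors deposited raw counts for each NCBI gene identifier in a separate file for every library; the values are whole numbers without normalization. Tools named in the submitters' processing notes are fastp, STAR and Salmon, with builds GRCh38 and hg38. The counting tool, annotation and strand setting are not stated there.

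Each file had 40929 rows; 34 repeated identifiers were added together. Symbols and coordinates came from RefSeq (GRCh38.p14), which matched 40789 of 40895 genes; unmatched genes held 0.00778% to 0.00929% of counts. A count of 0 allows up to 3 counts, or 0.088 to 0.0973 CPM, counting error only. The fit was made in R 4.3.3 with edgeR 4.0.16 (low counts removed by filterByExpr, TMM factors 0.978 to 1.02, group as the only term, 2-sided quasi-likelihood test), with limma 3.58.1 and DESeq2 1.42.0 for alternatives. The SE is the log2 fold change over the root of F. The test was checked on simulated counts.

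The 10 genes and the lists were chosen with earlier results of these data known. Named beside the 10 were PRAME, up to 4 genes per list (those passing at 1 CPM or more on average, the 2 with the smallest adjusted p each way), the nearest pattern per gene and the 2 highest markers per list. A planned comparison of subunit proteins was not run. Alternatives were RLE factors, library totals, 2 other filters, DESeq2, limma-voom, the replicate number as a block, removal of the regional shift and leaving out each library.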

Additional observations from a re-analysis of the deposited data

How the results depend on the processing

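Of the 10 genes, 8 kept their direction and their call under all 14 alternatives; the exceptions were NFKB1 and NFKBIA. The log2 fold change of ICAM1 stayed between -2.62 and -2.56, that of TRAF1 between -3.02 and -2.79 and that of BIRC3 between -2.50 and -1.88. NFKB1 reversed to -0.34 when the regional shift was removed, which follows from its neighbours' median. It was called higher at 0.10 with scaling to library totals, which put 1 of the 10 genes among the higher calls. In the separate fits with TMM factors and 1 library left out, NFKB1 ran from 0.033 to 0.068 and the number called higher from 0 to 1. NFKBIA lost its call with library totals (-0.16), DESeq2 (-0.21) and limma-voom (-0.21), and ran from -0.28 to -0.11 with 1 library left out; the cause was not tested. The number of the 10 genes called ran from 8 to 10, and that of all tested genes from 10801 to 12977. Library totals moved the median of all tested genes to 0.06.

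Same-numbered libraries of the 2 groups did not deviate together (correlations -0.059, -0.119 and -0.1). With 3 libraries a group, these correlations cannot show whether the libraries were prepared in pairs. With the replicate number as a block, 9 of the 10 genes were still called, NFKBIA at -0.22, and 11603 genes in all. Of the 10 genes BIRC3 is the most limited by depth, with at most 19 counts in a shPRAME library.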
